A study of Arabidopsis thaliana with 6 samples.

Results

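The genes described here are plant defensins and a thionin, small secreted cysteine-rich peptides of Arabidopsis thaliana that act against fungi and bacteria. Members were the probe sets that the platform annotation assigns to 1 gene whose symbol is PDF, a digit, a dot and a digit, with or without a final letter, together with THI2.1. This gave 6 probe sets of 22810 on the array, 1 for each of PDF1.2, PDF1.2b, PDF1.4, PDF2.1, PDF2.5 and THI2.1. The family was chosen by measured values, namely the difference in PDF1.2b signal between the treatments compared below, and its other members by their symbols. The differences of the members are therefore given as a description of these arrays, without p-values, and support nothing further.

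Whole Columbia seedlings were grown for 10 d on agar under 16 h of light and 8 h of dark, then moved to liquid medium for 8 h. In 3 samples, the auxin group, the medium held 1e-07 M 2,4-D, a synthetic auxin. In the other 3, the brassinazole group, it held 1e-07 M 2,4-D and 1e-06 M brassinazole, which blocks the synthesis of brassinosteroids, steroid hormones that promote growth. All samples thus received auxin, seedlings without it were not analysed here, and the comparison asks what differs in auxin-treated seedlings when brassinosteroid synthesis is inhibited. The labels call the samples biological replicates but describe RNA from 3 seedlings per batch being pooled, so the spread between arrays may be partly technical. In whole seedlings, fewer cells of a type and less transcript per cell cannot be told apart.

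Plant defensins are short peptides held in a compact fold by disulphide bonds, and thionins are another class of basic, disulphide-bonded peptides that damage membranes. In Arabidopsis, PDF1.2 and its close copies are the standard markers of the combined jasmonate and ethylene defence response, switched on through the ERF transcription factors ERF1 and ORA59 and held down by the MYC2 branch of jasmonate signalling. THI2.1 is a jasmonate-responsive marker as well, whereas several defensins of the PDF2 type are expressed in healthy organs without infection.

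Values are MAS5 signals on a linear scale, 1 per probe set and array, scaled by the authors to a common level on every array (a trimmed mean close to 500). The median signal of an array was 188.1 to 195.2. Some control probe sets set 2 arrays apart: the 25S rRNA control read 981 on auxin replicate 1 and 174 to 215 elsewhere, and 1 of 2 probe sets for the 3′ end of the bioD control read 3800 on brassinazole replicate 3 and at most 2746 elsewhere. The other bioD 3′ probe set read 4925 on that array and 4126 to 4602 elsewhere. Most other bioB, bioC and bioD probe sets also read highest there. A bioC 5′ probe set read 368 against at most 267 elsewhere, and a bioD 5′ probe set 2391 against at most 1782. A second bioD 5′ probe set (3706 against up to 3830) and a bioB 3′ probe set (308 against up to 309) did not. The 5S rRNA control was at 134 to 174 in the auxin group and 230.0 to 284 in the brassinazole group, and its part in any result below was not tested. Transcripts of shoot and root were present: RCA, which encodes Rubisco activase of leaves, read 22954 to 29053 over the 6 arrays, and the root beta-glucosidase PYK10 read 13503 to 17410. Only 1 of 5 shoot and 3 of 5 root marker genes had a probe set with 1 gene. None of these 4 was near 0, and limma called 0 of them (2 at an unadjusted p under 0.05, EXPA7 and EXPA18). The root hair expansin EXPA7 was at 173 to 223 with auxin alone and 147 to 162 with brassinazole (log2 change -0.37, limma adjusted p = 0.0916). EXPA18 was at 206 to 307 and 163 to 204 (log2 change -0.44, limma adjusted p = 0.0806), and the part of these genes in any result below was not tested. The summed signal of the root markers, nearly all of it PYK10, was 14027 to 17862 with auxin alone and 14841 to 17710 with brassinazole, and that of the shoot marker 24531 to 25764 and 22954 to 29053.

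**Figure D1:**
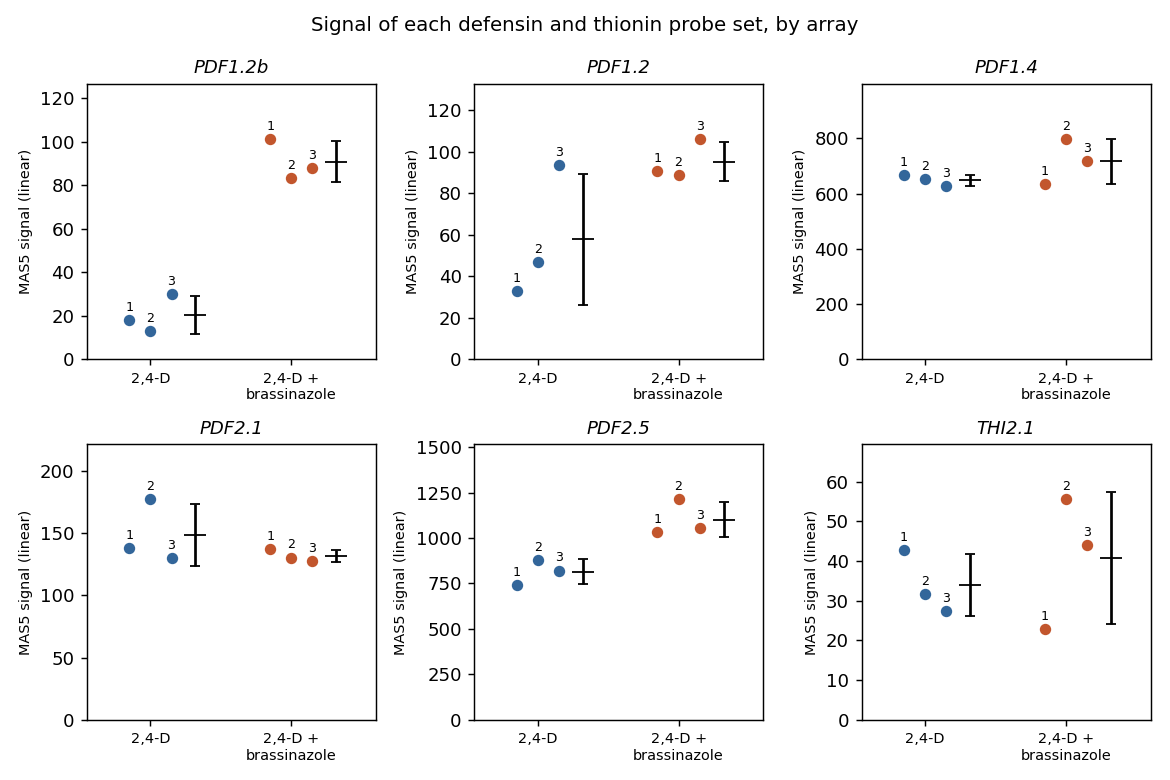
MAS5 signal (linear, axis from 0) of the 6 member probe sets on each array. Coloured points are arrays with their replicate number, and black bars are the mean and SD of 3 arrays. The PDF1.2b and PDF2.5 values of the groups do not overlap, while for PDF1.2 the auxin replicate 3 array, at 93.5, lies among the brassinazole arrays.

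PDF1.2b and PDF2.5 were higher in seedlings given brassinazole, and the other 4 members did not differ past the threshold. The fit was made with limma over all 17059 probe sets left by a filter on dim signals, with Benjamini-Hochberg adjustment, and the threshold was an adjusted p of 0.05. Of the 6 members, 2 were past it, both higher, where 7.52% of all tested probe sets were called, 3.44% higher and 4.08% lower. The groups did not overlap for the same 2 members, and for 27.2% of all tested probe sets. The log2 change was above 0 for 5 members and below 0 for 1, against 47.3% of all tested probe sets above 0. Nothing is read from any of these counts, since the same comparison led to the choice of the family.

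PDF1.2b is a close copy of PDF1.2, and the difference in its signal is what led to the choice of the family. Its signals were 17.8, 12.8 and 30.1 with auxin alone and 101, 83.3 and 87.7 with brassinazole, so every brassinazole array lay above every auxin array. The means were 20.2 ± 8.90 and 90.8 ± 9.39 (SD, n = 3 each), a ratio of 4.49. On the log2(signal + 16) scale used for the fit, the change was 1.58 ± 0.218 (SE), a size that depends on the 16 added to so dim a signal. The log2 change was 2.19 with a pseudocount of 1 and 0.88 with a pseudocount of 64. The dimmest probe set left by the filter stood, as a mean over arrays, at 34.2. The auxin arrays of PDF1.2b, averaged in the same way, stood at 19.5, so the probe set passed the filter through its brassinazole arrays and had to differ to be tested. Since a signal this dim cannot be told from background, the ratio of the means describes these signals and is no measured fold of the transcript.

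This probe set is the only member probe set of the 6 whose name ends in _x_at, the array maker's mark for probes that can bind related transcripts. PDF1.2, PDF1.2b and PDF1.2c encode nearly the same peptide, and PDF1.3 is a further close relative. In the RefSeq gene order, PDF1.3 lies directly beside PDF1.2b and PDF1.2c directly beside PDF1.2, with 0 protein-coding genes between them. No probe set was assigned to PDF1.3 or PDF1.2c alone, so the PDF1.2b signal may hold transcripts of more than 1 of these genes.

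PDF1.2, also called PDF1.2A and the best-known defensin marker gene, had signals of 33.0, 46.8 and 93.5 with auxin alone and 90.9, 88.7 and 106 with brassinazole. The groups overlapped: the auxin replicate 3 array read higher than brassinazole replicates 1 and 2, while auxin replicates 1 and 2 lay below all 3 brassinazole arrays. The means were 57.8 ± 31.7 and 95.3 ± 9.61, and the log2 change of 0.67 ± 0.244 (SE) was not past the threshold. Without auxin replicate 3 the log2 change was 1.00 ± 0.195 and past the threshold. Without auxin replicate 1 it was 0.42, and without both auxin replicate 1 and brassinazole replicate 3 it was 0.35, in each case not past it. PDF1.2 was thus not called with all arrays. It was past the threshold in 1 of 14 alternatives, the one without auxin replicate 3.

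The spread of PDF1.2 lay in the auxin group. The highest auxin signal was 2.83 times the lowest, against 1.199 times in the brassinazole group, where the median of this ratio over all tested probe sets was 1.18 and 1.19. For PDF1.2b the ratio was 2.35 in the auxin group and 1.22 in the brassinazole group, but its auxin signals were too dim to be told from background. The median covers probe sets of all levels, and a dim probe set can spread more in either group. For THI2.1, also dim, the ratio was 1.55 in the auxin group and 2.43 in the brassinazole group. On auxin replicate 3, both probe sets read higher than on the other auxin arrays. There, however, PDF1.2 reached the level of the brassinazole arrays and PDF1.2b, at 30.1, did not. How far transcripts bound by both probe sets enter these values was not tested.

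**Figure D2:**
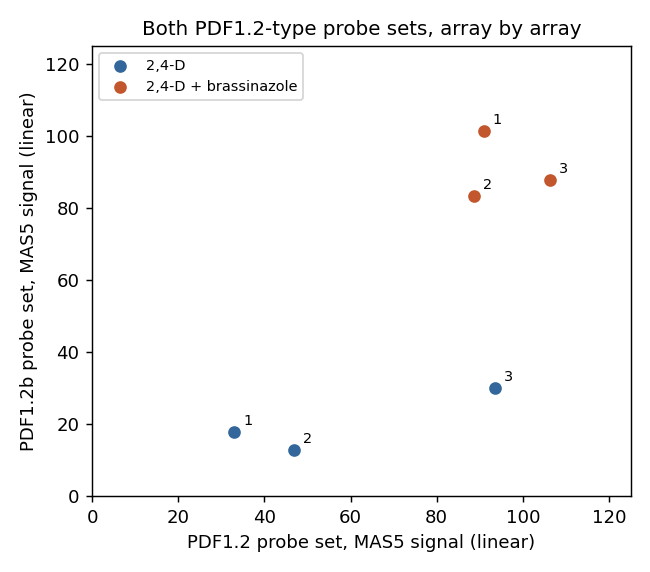
Signal of the PDF1.2 probe set (horizontal) against the PDF1.2b probe set (vertical), both linear MAS5 signals, 1 point per array with its replicate number. Auxin replicate 3 sits at 93.5 for PDF1.2, among the brassinazole arrays, but at 30.1 for PDF1.2b, below their range of 83.3 to 101.

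PDF1.4, also listed as LCR78 and the third defensin of the PDF1 group among the members, was at 666, 653 and 627 with auxin alone and 635, 799 and 719 with brassinazole. Brassinazole replicate 1 fell among the auxin arrays and the groups overlapped. The means were 648 ± 20.1 and 718 ± 81.8, with a log2 change of 0.14 ± 0.0965 (SE) that was not past the threshold. It was 0.22 without brassinazole replicate 1 and 0.058 without brassinazole replicate 2. Its spread ran the other way from that of PDF1.2, with the highest signal 1.06 times the lowest in the auxin group and 1.26 times in the brassinazole group.

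PDF2.5, a defensin of the PDF2 type also listed as LCR74, was at 742, 880.1 and 821 with auxin alone and at 1032, 1212 and 1057 with brassinazole. All 3 brassinazole arrays lay above all 3 auxin arrays. The means were 814 ± 69.4 and 1101 ± 97.2, a ratio of 1.35 and a log2 change of 0.43 ± 0.0946 (SE), which was past the threshold. In contrast to PDF1.2b, the signal was well over the filter in both groups, and the log2 change was 0.43 with a pseudocount of 1 and 0.41 with one of 64. The call was lost without auxin replicate 1 (log2 change 0.36 ± 0.103), without brassinazole replicate 2 (0.36 ± 0.107), without auxin replicate 1 and brassinazole replicate 3 together (0.39 ± 0.103) and without the variance trend (0.43 ± 0.106).

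PDF2.1, also listed as LCR70, was the only member with a lower mean in the brassinazole group. Its signals were 138, 177 and 130.3 with auxin alone and 137, 130.5 and 128 with brassinazole. The groups overlapped, and auxin replicate 2 alone stood above the others. The means were 149 ± 25.05 and 132 ± 4.63, with a log2 change of -0.15 ± 0.137 (SE) that was not past the threshold. It was -0.025 without auxin replicate 2 and -0.23 without auxin replicate 3.

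THI2.1, the jasmonate-responsive thionin, had signals of 42.7, 31.7 and 27.5 with auxin alone and of 22.8, 55.5 and 44.0 with brassinazole. The brassinazole group held both the lowest and the highest array, and its highest signal was 2.43 times its lowest. The means were 34.0 ± 7.86 and 40.8 ± 16.6, and the log2 change of 0.15 ± 0.256 (SE) was not past the threshold. It was 0.40 and 0.087 without brassinazole replicates 1 and 3, and 0.27 and 0.055 without auxin replicates 1 and 3, and without brassinazole replicate 2 the probe set fell under the filter. The probe set lay just over the filter, at 36.2 as a mean over all arrays taken on the log2 scale, and its auxin arrays alone stood at 33.6, under the filter. With an SE of 0.256, a change of the size seen for PDF2.5 was not detectable for THI2.1.

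**Figure D3:**
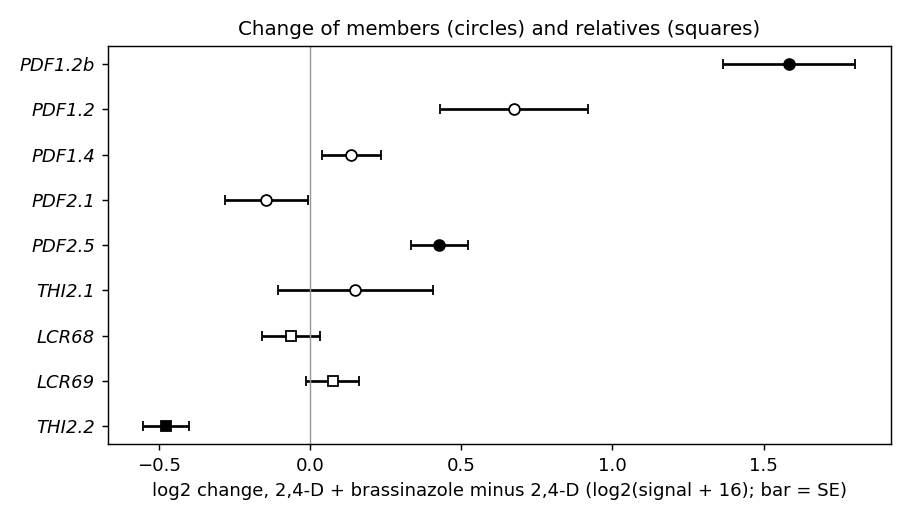
Log2 change (brassinazole group minus auxin group, on the log2(signal + 16) scale) with its SE for the 6 members (circles) and 3 tested relatives (squares). Filled symbols are past an adjusted p of 0.05. PDF1.2b (1.58) and PDF2.5 (0.43) lie to the right, THI2.2 (-0.48) to the left, and the open symbols are not past the threshold. PDF1.2b led to the choice of the family and passed the filter only through its brassinazole arrays, so its filled symbol is no support.

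THI2.2, the second thionin gene and no member by the rule, fell with brassinazole, whereas THI2.1 was not past the threshold. THI2.2 had signals of 2158, 2257 and 2260 with auxin alone and of 1595, 1641 and 1549 with brassinazole. The 3 brassinazole arrays all lay below the 3 auxin arrays. The means were 2225 ± 58.4 and 1595 ± 46.2, a 1.395-fold difference. The log2 change was -0.48 ± 0.0750 (SE), with a limma adjusted p of 0.00128, and the adjusted p was 0.000983 to 0.0176 over 15 alternatives. Whether the changes of the thionin genes differ from each other was not tested.

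Further defensin genes appear in the annotation under LCR numbers, which stand for low-molecular-weight cysteine-rich peptides. There were 8 such probe sets with 1 gene, and RefSeq lists a PDF name as a synonym for 5 of them. Only 2 of the 8 passed the filter, and limma called 0 of these 2 (0 also at an unadjusted p under 0.05). The share called over all tested probe sets was 7.52%, so 0 of 2 says little. LCR68, also named PDF2.3, was at 5319, 5034 and 5001 with auxin alone and at 4453, 4593 and 5742 with brassinazole. Brassinazole replicate 3 was the highest and brassinazole replicate 1 the lowest of all 6 arrays. Its log2 change was -0.063 ± 0.0945 (SE, limma adjusted p = 0.763), and 0.0055 without brassinazole replicate 1. LCR69, also named PDF2.2, was at 10820, 11996 and 9495 with auxin alone and at 11054, 11647 and 11202 with brassinazole. Its brassinazole arrays lay within the range of the auxin arrays, and the log2 change of 0.075 ± 0.0878 had a limma adjusted p of 0.686; the sign turned without auxin replicate 3 (-0.012) and with quantile normalization (-0.0056).

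**Figure D4:**
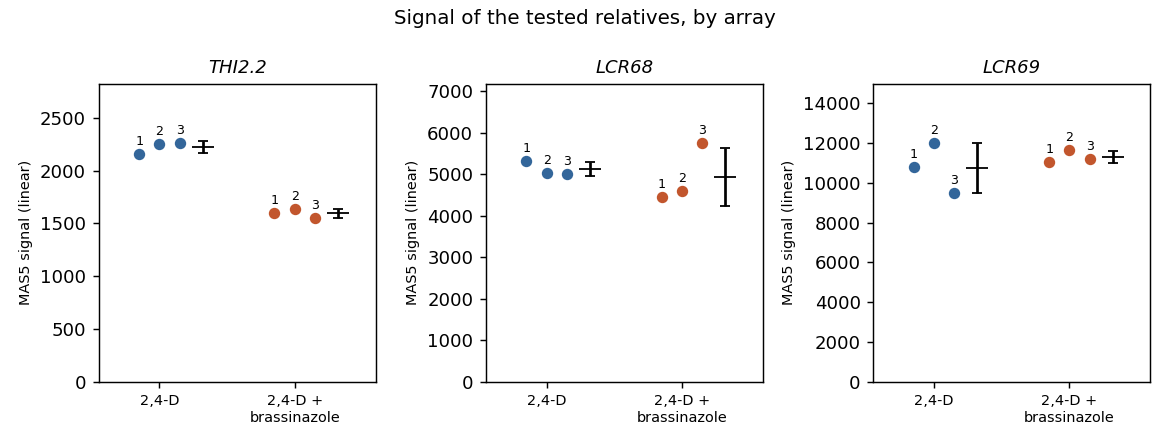
MAS5 signal (linear, axis from 0) of the 3 relatives left by the filter, on each array. Coloured points are arrays with their replicate number, and black bars are the mean and SD of 3 arrays. The THI2.2 arrays of the groups do not overlap (2158 to 2260 against 1549 to 1641), while those of LCR68 and LCR69 do.

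The other 6 LCR-numbered probe sets were under the filter, with signals of 0.528 to 31.7 on single arrays, and were not tested. They include LCR67 (PDF1.1), LCR66 (PDF2.4) and LCR72 (PDF2.6). LCR67 was at 4.14, 9.78 and 1.26 with auxin alone and 0.528, 1.46 and 2.15 with brassinazole. LCR72 was at 21.0, 10.2 and 11.5 with auxin alone and 3.83, 1.84 and 12.4 with brassinazole. The ratio of the group means, brassinazole over auxin, was 0.273 for LCR67, 0.423 for LCR72 and 0.900 for LCR66. It was 1.04 for LCR80, 1.19 for LCR59 and 1.41 for LCR24. Signals this dim cannot be told from background, so no direction is read from these ratios. Groups overlapped in each of the 6. In RefSeq gene order PDF2.1, LCR68 and LCR72 stand side by side with 0 protein-coding genes between them, and LCR69 is 1 gene away from PDF2.1.

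The hormone pathways that control PDF1.2 and THI2.1 were thinly represented among the 13513 probe sets assigned to 1 gene, of 22810 on the array. Of 88 loci in lists for jasmonate synthesis, signalling and response, ethylene synthesis and signalling, the ERF branch, salicylate defence and camalexin, 6 had a tested probe set with 1 gene. With limma, 0 of these 6 were past the threshold, and 2 had an unadjusted p under 0.05. Of all tested probe sets 7.52% were past the threshold, so 0 of 6 says little about these pathways. The regulators ERF1, ORA59 and MYC2 and the ERF branch chitinase genes were not among the named probe sets, so the list of that branch had 0 of 11 loci. Whether probe sets of the array without a single gene name measure them was not tested. OPCL1, a ligase of jasmonate synthesis, was at 374 to 388 with auxin alone and 371 to 503 with brassinazole. Its log2 change of 0.24 ± 0.114 had a limma adjusted p of 0.240; without brassinazole replicate 3 the change was 0.37, with an adjusted p of 0.0338 (0.0338 to 0.522 over the alternatives).

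MYC4 and MYC3, transcription factors that act with MYC2 in jasmonate signalling, had log2 changes of -0.37 and -0.033. The limma adjusted p was 0.126 for MYC4 and 0.898 for MYC3, and the sign of MYC3 turned without brassinazole replicate 3 (0.051). EIN3, the transcription factor of ethylene signalling that acts upstream of ERF1, was at 2142 to 2307 with auxin alone and 2022 to 2186 with brassinazole. Its log2 change was -0.088, with a limma adjusted p of 0.563. In the salicylate list, WRKY53 was at 51.0, 18.7 and 40.0 with auxin alone and 49.8, 55.8 and 69.0 with brassinazole, with a log2 change of 0.54 (limma adjusted p = 0.221). Without auxin replicate 2 the WRKY53 change was 0.27. SAG101 of the same list had a log2 change of 0.17 (limma adjusted p = 0.620), which was 0.013 without auxin replicate 3, 0.019 without brassinazole replicate 2, 0.26 without auxin replicate 2 and 0.27 without brassinazole replicate 3. Of 11 loci for other small cysteine-rich peptides, 2 were tested: THI2.2, given above, and AT1G22690, listed as GASA9, at 2918 to 3203 and 2864 to 3302 with a log2 change of -0.016 (limma adjusted p = 0.942), whose sign turned without auxin replicate 2 (0.012), without brassinazole replicate 1 (0.029) and with arrays centred on their median (0.0053).

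The genes whose pattern over the 6 arrays was most like that of each member were found by Pearson correlation of log2(signal + 16) among 9409 other tested probe sets with 1 gene. With 6 arrays in 2 groups that differ, and so many candidates, high values arise readily, so they are given as a description only. PDF1.2b was most like AT2G25980 (r = 0.998), AT5G27770 (0.993) and AT5G13030 (0.992). AT2G25980 read 616, 571 and 715 with auxin alone and 1097, 1068 and 1056 with brassinazole. Its highest auxin array was replicate 3, as for PDF1.2b, but the gene was chosen for that likeness, so this is no separate support. In RefSeq gene order AT2G25980 lies near PDF1.2b, with 3 protein-coding genes between them.

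PDF1.2 was most like AT3G05950 (r = 0.989), ATL8 (0.984) and AT2G43600 (0.983). AT3G05950 read 15.7, 29.7 and 56.0 with auxin alone and 59.3, 61.8 and 66.2 with brassinazole, the same order of the auxin arrays as PDF1.2. AT2G43600 read 99.7, 122 and 152 with auxin alone and 165, 163 and 177 with brassinazole. For these genes, as for PDF1.2, auxin replicate 3 was the highest of the auxin arrays. They were chosen for their likeness to PDF1.2, so the shared order of arrays is no separate support. PDF2.5 was most like AT1G65490 (r = 0.997), AT1G06720 (0.994) and AT2G36690 (0.990). For PDF1.4, PDF2.1 and THI2.1 the most alike were AT5G51140 (r = 0.978), UPP (0.991) and AT1G06050 (0.975). Values above 0.95 were reached by 80 candidates for PDF1.2b, 44 for PDF2.5, 24 for PDF1.2, 10 each for PDF1.4 and PDF2.1, and 8 for THI2.1.

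**Figure D5:**
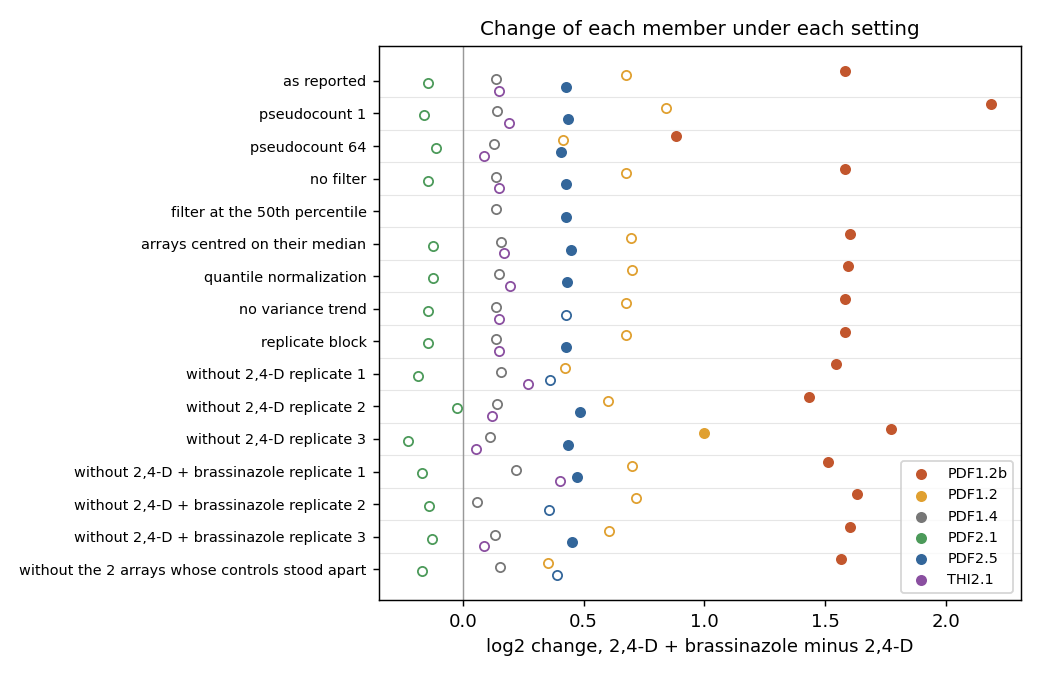
Log2 change (horizontal) of each member as reported and under 15 alternative settings (rows), with filled points past an adjusted p of 0.05 and open points not past it. A missing point means that the filter removed the probe set. The PDF1.2b change moves between 0.88 and 2.19 with the pseudocount, PDF2.5 is open under 4 settings, and PDF1.2 is filled without auxin replicate 3. PDF1.2b led to the choice of the family, so its filled points are no sign of stability.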

How the data were processed

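The deposited values are linear intensities from Affymetrix arrays, 1 signal per probe set and array. Per the submitters' processing notes, the authors used MAS5, whose version is not given in the sources used here. Per the labels' protocols, 6 µg of total RNA was made into biotin-labelled cRNA. Detection calls were not used here, so a dim signal cannot be told from background. Groups and replicate numbers came from sample titles. The 64 control probe sets were left out, 16 was added to each signal before log2, and features with a mean under the 25th percentile were dropped, leaving 17059. The fit used lmFit and eBayes with a trend (limma 3.58.1, R 4.3.3), two-sided, with Benjamini-Hochberg adjustment. Means and SDs are of the signals. The number of arrays limits the precision. On 10 sets of simulated arrays with 200 probe sets changed, the fit recovered 68.5% of log2 changes of 0.5 and 96.0% of changes of 1, and 6.73% of calls were false. Fewer probe sets were changed there than the 1282 called in the data, and the noise was independent and normal. These rates average over probe sets of all levels and are not rates for the dim members PDF1.2, PDF1.2b and THI2.1.

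Names came from the platform annotation (13513 probe sets with 1 gene and 503 with several, of 22810 on the array). They were updated through a RefSeq table of the TAIR10.1 assembly, which served for names and gene order only. No sequences were used. The members and lists were chosen with earlier results of these data known. Named were all members, LCR-numbered genes, up to 3 called probe sets of each list or otherwise up to 2 by smallest p, and the 3 genes most like each member. Alternatives were other pseudocounts, filters, normalizations and variance models, a replicate block, and leaving out arrays. The sample titles name no pairs, so the replicate numbers were not taken as pairs. Same-numbered arrays of the groups had residual correlations of 0.0372, 0.0625 and 0.0491, against at most -0.0099 for other numbers. Group means were subtracted first, so a positive value for the same number makes those for other numbers negative on balance. These small values do not decide whether the arrays were paired.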

Additional observations from a re-analysis of the deposited data

How the results depend on the processing

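The 2 calls among the members became 1 with the filter at the 50th percentile (1 of 2 members left by it), without the variance trend (1) and without the auxin 1 and brassinazole 3 arrays (1), set apart by their controls, and were 1 to 3 with single arrays left out. They stayed at 2 under the other 6 alternatives. The 1282 calls over all probe sets were 755 without the variance trend, 888 without the filter and 1063 with the filter at the 50th percentile. They were 815 without those 2 arrays and 821 to 1157 with single arrays left out, where fewer arrays alone give fewer calls. The 0 calls in the hormone lists were 0 to 1 with single arrays left out. With the replicate block the counts were 2, 1280 and 0. Residual correlations were 0.0372 to 0.0625 for same-numbered arrays of the groups, against at most -0.0099 for other numbers. Because group means were subtracted, this contrast is partly built in and does not decide whether arrays were paired. No member changed direction under any alternative that tested it. Changes near 0 turned sign: AT1G22690 to 0.0053 with median centring (-0.073 to 0.029 with single arrays left out), LCR69 to -0.0056 with quantile normalization (-0.012 to 0.16), MYC3 to 0.047 and RCA to -0.0046 without the 2 arrays (-0.12 to 0.051 and -0.026 to 0.14), and LCR68 at -0.18 to 0.0055 with single arrays left out. EXPA18 passed without auxin replicate 3 (-0.60). The causes were not tested.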
